A study of Mus musculus with 4 samples.

Results

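Glul, Slc1a2, Oat, Rhbg, Gls2 and Slc38a3 are 6 mouse genes of glutamine and glutamate handling, taken by name as a listed set from the 32285 mouse genes of a liver single-nucleus RNA-seq count table. Bl/6 mice, by the study's general statement males of 6 to 8 weeks, were fed chow diet (CD) or a low-protein diet (LPD) for 1 week, received plasmids by hydrodynamic tail vein injection (SB-HTVI, in which a Sleeping Beauty transposase inserts the plasmid cargo into the DNA of the hepatocytes that take it up), and stayed on the same diet for 2 more weeks before frozen liver was taken. The oncogene plasmids carried human c-MET and a shortened, stabilized human β-catenin (ΔN90-β-catenin, gene CTNNB1), both under the EF1α promoter, and control mice received vector. There were 4 libraries, 1 per group, labelled control and oncogene on CD and control and oncogene on LPD. Rows of 4 values below follow this order, called library order. Whether a library came from 1 mouse or from a pool is not given in the sources used here.

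Glutamine synthetase, the product of Glul, joins ammonium to glutamate in the hepatocytes around the central vein, where it takes up the ammonium that the urea cycle upstream has left in the blood. Slc1a2 encodes a plasma membrane transporter that brings in glutamate, Oat encodes ornithine aminotransferase, a mitochondrial enzyme that leads ornithine toward glutamate, and Rhbg encodes an ammonium transporter of the Rhesus family. At the other end of the lobule, around the portal vein, the liver-type glutaminase Gls2 releases ammonium from glutamine. Slc38a3 encodes a sodium-coupled transporter that moves glutamine across the hepatocyte membrane. Glul and Slc1a2 are known targets of Wnt/β-catenin signaling in the liver.

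The libraries held between 9825 and 12552 nuclei after the study's filter, of which between 6812 and 9630 were hepatocyte nuclei. Their median depth in library order was 4773, 4044, 2246 and 2284 UMIs (unique molecules counted), so depth split by diet and cannot be told apart from it. In the CD pair the human transgenes were found on the side labelled control: 85 of its hepatocyte nuclei held a transgene UMI, against 0 of 9630 under the label CD oncogene (at most 0.0312%, from 3 counts), 0 of 7740 under LPD control and 6 under LPD oncogene. The order of the nuclei counts that the study states for the CD pair is also the reverse of that in the files. Every library below is therefore named as labelled, and no direction by injection in CD is drawn from the labels alone. Between 16 and 35 barcodes were shared by each pair of libraries.

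Each hepatocyte nucleus was placed between portal and central vein by a score of 14 pericentral minus 12 periportal marker genes, none of which is a member. The 20% of hepatocyte nuclei with the highest score in each library are called pericentral and the 20% with the lowest periportal. These are ranges of a score and not cell types: between 4.21% and 4.53% of hepatocyte nuclei lay within 0.1 SD of the pericentral cut and between 7.59% and 10.2% within 0.1 SD of the periportal one. The marker levels that follow are those of the score's own genes, so they describe the sets and cannot test their names. The summed level of the 14 pericentral markers had a median over nuclei between 4248 and 7724 CPM (UMIs scaled to the usual common total) in the pericentral nuclei and between 0 and 263 CPM in the periportal ones. The 12 periportal markers ran from 64.4 to 1740 CPM in pericentral nuclei and from 2358 to 7259 CPM in periportal ones. A set is a rank within its library: with 1 pair of cuts for all libraries, CD control had 3114 pericentral and 242 periportal nuclei, against 966 to 1305 and 1063 to 2922 in the other 3 libraries.

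Glul, Slc1a2, Oat and Rhbg were higher in pericentral than in periportal nuclei, Gls2 was lower, and Slc38a3 was slightly lower. The comparison was of UMIs summed over the 2 sets of each library, 8 sums with library as a term, by edgeR's quasi-likelihood test with Benjamini-Hochberg adjustment over 13222 genes. A gene was called at an adjusted p under 0.05 and at least 2-fold. Of all genes, 3.17% were called higher and 3.3% lower in pericentral nuclei. Of the 6 members, 4 were called higher and 1 lower, and Slc38a3 passed the adjusted p but not the fold. All 6 members passed the filter on low counts. The p-values measure the spread between these 4 libraries.

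Glul, which makes glutamine, was at 1455, 224, 521 and 747 CPM in the pericentral nuclei, in library order. In the periportal nuclei it was at 19.4, 7.78, 28.5 and 34.1 CPM. The 2 zones did not overlap: the lowest pericentral level was above the highest periportal one. The fitted log2 difference was 4.91 (SE 0.32, n = 4 libraries per zone, adjusted p 5.6e-05), and the single libraries ran from 18.3-fold in LPD control to 74.9-fold in CD control.

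Slc1a2, the glutamate importer, was at 1840, 792, 553 and 1183 CPM in the pericentral nuclei, in library order. The periportal nuclei held 17.4, 14.6, 6.65 and 16.4 CPM. The zones stood apart in every library, and this was the steepest fitted difference among the 6 members, 6.21 on the log2 scale (SE 0.19, adjusted p 1.1e-06). It was also the most even one of the 4 genes called higher, from 54.3-fold in CD oncogene to 106-fold in CD control.

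Oat, which links ornithine to glutamate, was at 304, 93.5, 38.9 and 57.4 CPM in the pericentral nuclei and at 8.42, 8.36, 3.33 and 5.36 CPM in the periportal ones, in library order. Its fitted log2 difference was 4.04 (SE 0.30, adjusted p 1.1e-04). The library labelled CD control stood apart with 36.1-fold, against 10.7-fold to 11.7-fold in the other 3. Without that library the fitted difference was 3.42 (adjusted p 9.0e-06).

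Rhbg, the ammonium transporter, was sparse. In library order, pericentral nuclei held 17.8, 2.81, 4.42 and 1.16 CPM and periportal ones 1.05, 0.246, 0.475 and 0.564 CPM, and the whole hepatocyte class of the 4 libraries held 232, 57, 35 and 14 Rhbg UMIs. The fitted log2 difference was 3.54 (SE 0.35, adjusted p 4.7e-04), and 2.87 without the library labelled CD control (adjusted p 0.0092). In LPD oncogene the zones held 5 and 2 UMIs, and the log2 ratio of 1.04 had a 95% counting interval from -1.57 to 4.43, so no difference was detectable there at this depth.

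Gls2, the glutaminase, ran the opposite way. In library order, periportal nuclei held 332, 334, 451 and 176 CPM and pericentral ones 14.0, 47.2, 63.2 and 13.2 CPM. Every periportal value was above every pericentral one. The fitted log2 difference was -3.47 (SE 0.30, adjusted p 2.1e-04), and the single libraries were between 7.07-fold and 23.7-fold lower in pericentral nuclei, with the largest difference in the library labelled CD control.

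Slc38a3, the glutamine transporter, was present along the whole axis. In library order, periportal nuclei held 913, 822, 972 and 560 CPM and pericentral ones 624, 545, 739 and 422 CPM. Each library was lower in its pericentral nuclei, but the zones overlapped across libraries, since the periportal level of LPD oncogene lay below the pericentral levels of CD control and LPD control. The fitted log2 difference was -0.52 (SE 0.10, adjusted p 0.0082), which is under 2-fold. Adjusted p under 0.05 at any fold was reached by 7.77% of all genes in this direction and by 7.81% in the other.

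**Figure D1:**
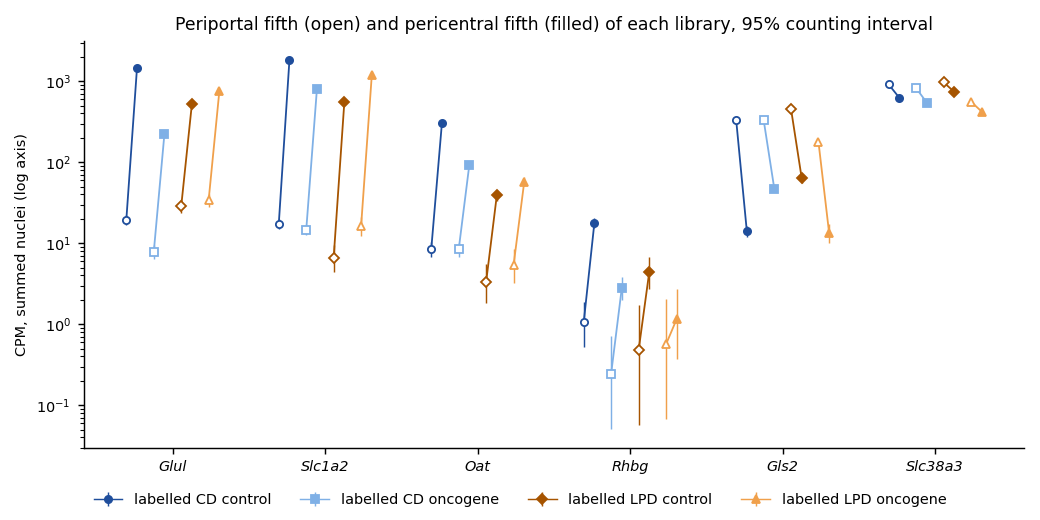
Level of each member in the periportal (open) and the pericentral (filled) 20% of hepatocyte nuclei of each library, in CPM on a log axis, with 95% counting intervals. The lines go up for Glul, Slc1a2, Oat and Rhbg and down for Gls2, and they are short for Slc38a3, from 1.31-fold to 1.51-fold.

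Glul climbed mainly at the pericentral end of the axis. Hepatocyte nuclei of each library were put in 10 equal bins of the score, from bin 1 (most periportal) to bin 10 (most pericentral). In CD control Glul was at 16.5 CPM in bin 1, 156 in bin 8, 505 in bin 9 and 2143 in bin 10. In CD oncogene the same bins held 5.57, 30.3, 58.8 and 366 CPM, in LPD control 32.4, 62.8, 128 and 932 CPM, and in LPD oncogene 28.2, 116, 244 and 1288 CPM. Bin 10 alone held between 65.9% and 76.2% of the Glul UMIs of hepatocyte nuclei, while it held between 10.8% and 14.5% of all their UMIs. Slc1a2 was drawn in further: bin 10 held 77.6%, 80.7%, 84.2% and 77.4% of its UMIs in library order. Oat was spread more widely, with bin 10 at 65.4%, 55.2%, 51.0% and 47.3%.

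Gls2 did not mirror this step. In CD control it declined along the whole axis, from 354 CPM in bin 1 to 187 in bin 5, 44.6 in bin 7 and 9.89 in bin 10. In CD oncogene the decline came later, with 333, 322, 230 and 21.7 CPM in these bins, and LPD control had 467, 392, 275 and 42.4 CPM. LPD oncogene began lower, at 178 CPM, and went on to 123, 58.8 and 8.66 CPM. Periportal nuclei held between 31.4% and 46.4% of the Gls2 UMIs of hepatocyte nuclei. Slc38a3 sloped from 937 to 599 CPM between bins 1 and 10 in CD control, from 821 to 472 in CD oncogene, from 960 to 706 in LPD control and from 556 to 397 in LPD oncogene.

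**Figure D2:**
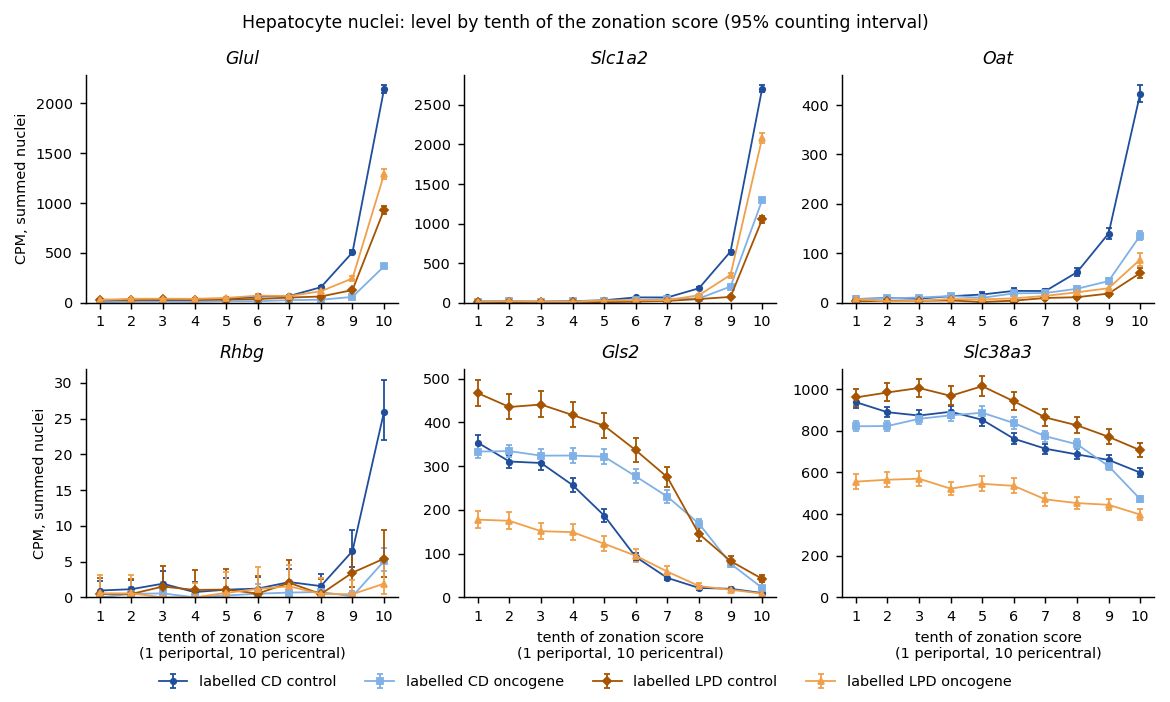
Level of each member in CPM (linear axes from 0) over 10 equal bins of hepatocyte nuclei from the most periportal (1) to the most pericentral (10), 1 line per library with 95% counting intervals. Glul, Slc1a2 and Oat stay low until the last bins in each library, where Glul reaches 366 to 2143 CPM, while Gls2 declines over more of the axis, from the first bins in CD control, and Slc38a3 is shallow.

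The share of nuclei with a UMI followed the levels. Since the libraries were not equally deep, nuclei were thinned to 1000 UMIs apiece, which left out between 447 and 596 hepatocyte nuclei per library that had fewer. Glul was found in 56.1% of pericentral and 2.05% of periportal nuclei in CD control, in 15.7% and 0.735% in CD oncogene, in 22.8% and 2.99% in LPD control and in 35.4% and 4.19% in LPD oncogene. Most pericentral nuclei of 3 libraries thus had no Glul UMI at this depth. Without thinning, between 10.6% and 26.3% of all hepatocyte nuclei had one. Slc1a2 was found in 61.8%, 32.6%, 23% and 35.1% of pericentral nuclei in library order and in no more than 1.98% of periportal ones. Gls2 was found in 27.2%, 28.6%, 35.3% and 15.5% of periportal nuclei and in 1.76%, 4.92%, 5.39% and 1.86% of pericentral ones. Rhbg was found in 0 of 1904 periportal nuclei in CD oncogene (at most 0.158%, from 3 counts). The exact binomial intervals of these shares cover counting error only.

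Nuclei with Glul were far more often nuclei with Slc1a2. At 1000 UMIs, 71.6% of the Glul-positive hepatocytes of CD control had a Slc1a2 UMI (95% interval 68.9% to 74.2%), against 6.59% of Glul-negative ones. The pairs were 60.8% and 6.26% in CD oncogene, 45.1% and 2.32% in LPD control, and 47.6% and 3.97% in LPD oncogene. The odds ratios were 35.8, 23.2, 34.6 and 22, with the lowest lower bound at 18.1. Since both genes rise toward the central vein, the odds ratio was also taken within the 10 bins, where it was 7.94, 9.16, 15.5 and 9.19, with the lowest lower bound at 6.46. The bins are ranges of a score that itself has counting error.

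Oat was next. It was found in 24.2%, 15.8%, 6.44% and 8.49% of Glul-positive nuclei in library order and in 2.86%, 2.43%, 0.897% and 1.56% of Glul-negative ones. Within bins its odds ratios were 2.13, 2.75, 2.76 and 2.05, each with a lower bound over 1, the lowest at 1.39. Among pericentral nuclei alone, 222 of 1537 nuclei in CD control held Glul, Slc1a2 and Oat at once, against 49 of 1849 in CD oncogene, 25 of 1446 in LPD control and 46 of 1292 in LPD oncogene. None of the 3 was found in 26.9%, 60.7%, 68.3% and 53.3% of those nuclei. For Rhbg the 4 libraries had 28, 4, 3 and 2 nuclei with both genes, and each interval within bins held 1.

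Gls2 was less often found with Glul over all hepatocyte nuclei, with odds ratios of 0.245, 0.341, 0.451 and 0.466. Within bins these were 1.20, 0.902, 0.995 and 1.05, and each interval held 1. Slc38a3 had odds ratios of 0.773, 0.494, 0.755 and 0.879, of which the last had an interval that held 1 (0.751 to 1.03). Within bins its value in CD oncogene, 0.709 (0.569 to 0.883), was the only one whose interval did not hold 1.

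**Figure D3:**
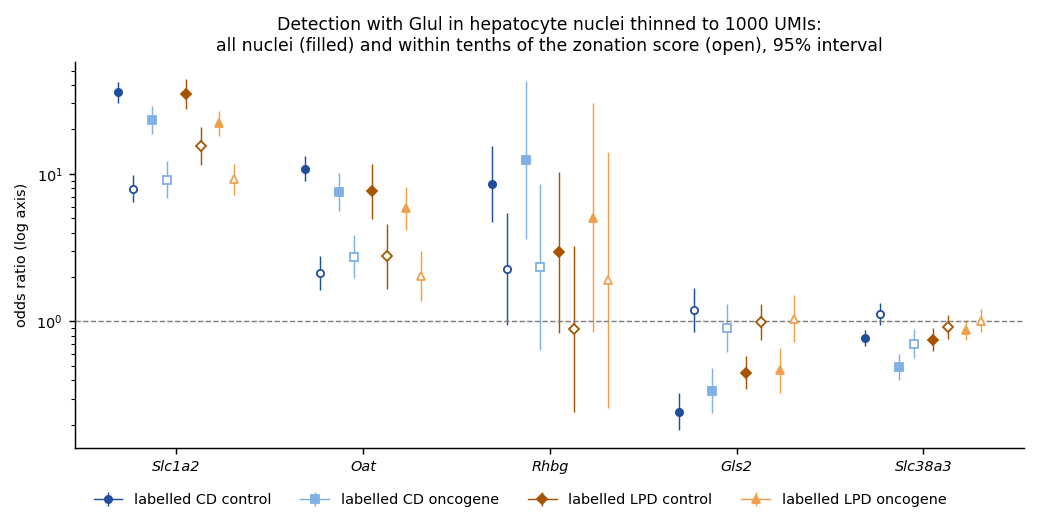
Odds ratio of detection with Glul in hepatocyte nuclei thinned to 1000 UMIs, for each partner and library on a log axis, over all nuclei (filled) and within the 10 bins of the score (open), with 95% intervals. Slc1a2 and Oat stay above 1 within bins, and Gls2 moves from below 1 to an interval that holds 1.

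The bins also show which genes had the profile most like each member, as Pearson's r of log2(CPM + 5) over the 40 sums of 10 bins in 4 libraries, among 8133 genes. The sums share libraries, depth and the score, so r is a description. It takes in differences between libraries as well as the course along the score. The nearest to Glul were Tbx3os1 (0.97), Znrf3 (0.95), a Wnt receptor ligase and target, Rdh9 (0.94), Airn (0.93) and Tnfrsf19 (0.93). The nearest to Slc1a2 were Rcan2 (0.99), Kif26b (0.97), Gm13481 (0.97), Slc22a3 (0.95) and Oat (0.94). Oat had Slc1a2 (0.94), Rcan2 (0.94), Agmo (0.93) and Ncald (0.93). Rhbg had Oxr1 (0.87), Meg3 (0.86), Igf2r (0.86), Gba2 (0.85) and Mid1 (0.79).

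Gls2 was nearest to Hal (0.96), Uroc1 (0.94) and Amdhd1 (0.94), which encode the first 3 enzymes that turn histidine into glutamate, followed by Tiam2 (0.93) and Rgs7 (0.92). Slc38a3 was nearest to Cyp2u1 (0.96), Slc30a10 (0.92), Sgpl1 (0.92), Hoga1 (0.90) and F7 (0.89). Among the members, Glul had r = 0.92 with Slc1a2, 0.81 with Oat, 0.75 with Rhbg and -0.89 with Gls2. With each library's mean taken out, these were 0.99, 0.98, 0.81 and -0.94. The order of the nearest genes differed on that scale. The genes listed for Glul had 0.95 to 0.97 there, under Slc1a2 and Oat. Those listed for Slc38a3 had 0.81 to 0.92, under its 0.95 with Gls2.

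Sequence just before the annotated start was at hand for 3 of the 6 members, the 3 pericentral genes with the most shared detection, and is shown because they rose together. Each run is the 250 bases before the start in RefSeq on build GRCm38.p6, written 5′ to 3′ on the gene's strand. Capitals mark CTTTGA, the core letters of a TCF/LEF motif, and CCAAT, searched on both strands.

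Glul, chr1:153899679-153899928, plus strand: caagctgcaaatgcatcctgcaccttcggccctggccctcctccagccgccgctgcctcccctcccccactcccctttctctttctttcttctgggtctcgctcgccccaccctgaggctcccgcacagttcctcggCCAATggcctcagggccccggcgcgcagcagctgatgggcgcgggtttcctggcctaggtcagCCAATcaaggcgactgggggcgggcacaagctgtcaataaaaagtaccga
Slc1a2, chr2:102706188-102706437, plus strand: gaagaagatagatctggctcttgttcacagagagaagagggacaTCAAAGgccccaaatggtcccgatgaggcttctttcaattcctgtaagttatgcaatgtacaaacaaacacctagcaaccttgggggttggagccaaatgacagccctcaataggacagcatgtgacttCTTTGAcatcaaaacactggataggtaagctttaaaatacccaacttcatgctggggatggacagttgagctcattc
Oat, chr7:132576399-132576648, minus strand: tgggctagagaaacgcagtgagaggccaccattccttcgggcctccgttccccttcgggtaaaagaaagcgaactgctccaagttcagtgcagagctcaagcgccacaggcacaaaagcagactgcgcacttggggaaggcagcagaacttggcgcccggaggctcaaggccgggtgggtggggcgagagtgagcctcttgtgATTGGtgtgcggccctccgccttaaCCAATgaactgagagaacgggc

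The Slc1a2 run held CTTTGA at 77 and, on the other strand, at 206 bases before the start, and no CCAAT. The Glul run held CCAAT at 113 and 50 bases and the Oat run held it at 22 and, on the other strand, at 47 bases, and neither held CTTTGA. Over 32851 promoters of the same length, 13.8% held CTTTGA and 33.8% held CCAAT. A match of letters is a description. The Slc1a2 window lies inside the gene as GENCODE annotates it (chr2:102658659-102790784), since RefSeq's start here is a later one. In GRCm38, Glul lies on chromosome 1 (153899944-153909723, plus strand), Oat on chromosome 7 (132557478-132576398, minus), Rhbg on chromosome 3 (88242874-88254709, minus), Gls2 on chromosome 10 (128194457-128210004, plus) and Slc38a3 on chromosome 9 (107650634-107669530, minus). Oat overlaps Fgfr2 on the same strand, and Glul, Slc1a2 and Gls2 overlap Teddm2, Gm13872 and Spryd4 on the opposite strand. Reads in the shared stretches are less certain, above all on the same strand. Rhbg also overlaps Gm38392 and Glul overlaps Mir8114 on the same strand, and neither of these is among the genes counted.

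The wider set of glutamine, glutamate and ammonia genes held calls in both directions. Of 64 other genes, 55 could be tested, of which 4 were called higher and 11 lower in pericentral nuclei, beside 3.17% and 3.3% of all genes, with a median log2 difference of -0.23 over the list and 0.0045 over all genes. At any fold, 7 and 17 passed the adjusted p, beside 7.81% and 7.77% of all genes. The list was described by these counts and not tested as a set. Higher were the neutral amino acid transporters Slc1a5 (log2 3.31, SE 0.29, adjusted p 2.6e-04) and Slc1a4 (2.37, SE 0.59, adjusted p 0.031), proline dehydrogenase Prodh (1.44, SE 0.20, adjusted p 0.0026) and the aquaporin Aqp9 (1.38, SE 0.17, adjusted p 0.0013). Lowest were histidine ammonia-lyase Hal (-4.00, SE 0.16, adjusted p 6.2e-06), the serine synthesis enzyme Psat1 (-2.43, SE 0.47, adjusted p 0.011), Uroc1 (-2.08, SE 0.19, adjusted p 2.7e-04), Amdhd1 (-2.0, SE 0.36, adjusted p 0.0081) and arginase Arg1 (-1.71, SE 0.27, adjusted p 0.0040). Psat1 and Slc1a5 were at low levels, at most 21.8 CPM in each of the 8 sums. Psat1 was under 0.3 CPM in both zones of both CD libraries, and went from 5.46 to 0.442 CPM in LPD control and from 19.2 to 3.24 CPM in LPD oncogene between periportal and pericentral nuclei. Slc1a4 was nearly level in LPD oncogene, at 7.34 and 8.79 CPM, and went from 1.34 to 28.5 CPM in CD control.

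Levels differed between libraries as well as between zones, and with 1 library per group no test between libraries was made. Over all hepatocyte nuclei, Glul was at 361 CPM in CD control (95% counting interval 356 to 367), 71.1 in CD oncogene, 145 in LPD control and 217 in LPD oncogene. The order of Slc1a2 was 448 in CD control, 298 in LPD oncogene, 232 in CD oncogene and 135 in LPD control, with no overlap of the counting intervals. Oat stood at 83.1, 35.6, 12.8 and 20.5 CPM in library order, so both LPD libraries were below both CD libraries. Gls2 was at 161, 225, 296 and 93.0 CPM and Slc38a3 at 783, 748, 898 and 501 CPM. Rhbg was at 5.0, 1.05, 1.71 and 0.747 CPM, and the intervals of CD oncogene (0.793 to 1.36) and LPD oncogene (0.408 to 1.25) overlapped. In such sums, fewer hepatocytes of a zone and less RNA per nucleus cannot be told apart.

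By label within CD, the log2 ratio of the oncogene to the control library was -2.35 for Glul, -0.95 for Slc1a2, -1.22 for Oat and -2.26 for Rhbg. It was 0.48 for Gls2 and -0.07 for Slc38a3. On the scale log2(CPM + 5), 1.89% of 7243 genes were at least 2-fold lower and 2.17% higher, with a median of -0.10 over all genes. Of the 5 members at levels that allow this count, which leaves out Rhbg, Glul and Oat were at least 2-fold lower and 0 were higher. In this pair the library with transgene UMIs is the one labelled control. The zones differed in size of the ratio. Glul was at -2.70 in pericentral nuclei and -1.32 in the periportal ones, and Oat at -1.70 and -0.01. For Gls2 the periportal nuclei of both libraries were level (0.01, interval -0.06 to 0.07), while the pericentral ones were 1.76 apart.

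By label within LPD, the log2 ratio of the oncogene to the control library was 0.58 for Glul, 1.14 for Slc1a2 and 0.68 for Oat. It was -1.20 for Rhbg, -1.67 for Gls2 and -0.84 for Slc38a3. On the scale log2(CPM + 5), 1.49% of all genes were at least 2-fold higher and 0.98% lower, with a median of -0.02. Slc1a2 was the member past 2-fold on the higher side and Gls2 on the lower side. Slc1a2 was at 1.10 in pericentral and 1.30 in periportal nuclei, and Slc38a3 at -0.81 and -0.79. Gls2 was at -2.26 and -1.35, and Glul at 0.52 and 0.26, where the second interval held 0. The pericentral and periportal nuclei of each pair were matched by rank in the score and not by position in tissue.

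**Figure D4:**
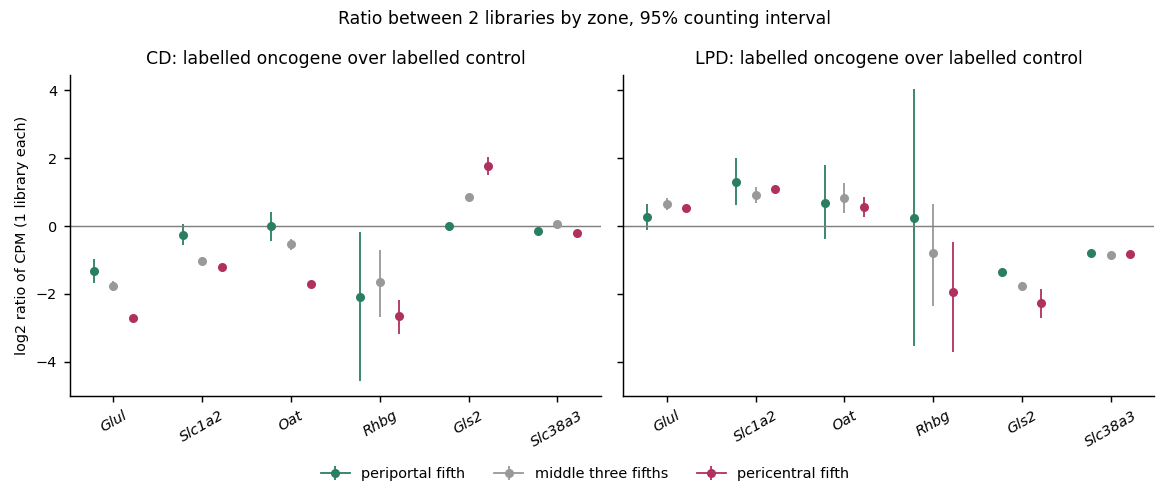
Log2 ratio of CPM between the library labelled oncogene and the library labelled control, within CD (left) and LPD (right), by zone of the hepatocyte nuclei, with 95% counting intervals and 1 library on each side. In CD the ratios of Glul, Oat and Gls2 lie farthest from 0 in pericentral nuclei, at -2.70, -1.70 and 1.76, and in LPD those of Slc1a2 and Slc38a3 are nearly the same in each zone.

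By diet, 4 pairs of libraries can be formed, which share libraries. Oat was lower in LPD in each pair, with log2 ratios of -2.70 for the libraries labelled control, -0.79 for those labelled oncogene, -2.02 for LPD oncogene over CD control and -1.48 for LPD control over CD oncogene. On the scale log2(CPM + 5), 1.41% of genes were at least 2-fold lower and 2.64% higher in all 4 pairs, and no member was, since Oat was under 2-fold in the pair labelled oncogene. For Glul the 4 ratios in the same order were -1.31, 1.61, -0.74 and 1.03, and for Slc1a2 -1.72, 0.36, -0.59 and -0.78. The direction of Glul turned with the pair, and Slc1a2 was higher only in LPD oncogene over CD oncogene. The libraries of each of the last 2 pairs were alike in whether transgene UMIs were found. Between the libraries labelled control, 3 of 5 members (Glul, Slc1a2 and Oat) were at least 2-fold lower, as were 3.96% of all genes, and 0 were higher, against 6.94%. Between those labelled oncogene, Gls2 was at least 2-fold lower, against 4.06% of all genes, and Glul higher, against 8.35%. In LPD oncogene over CD control Oat alone was lower (3.81% of all genes lower, 7.11% higher), as in LPD control over CD oncogene (3.92% and 7.88%). Over the 4 pairs in the order given for Oat, Gls2 was at 0.88, -1.28, -0.79 and 0.39 and Slc38a3 at 0.20, -0.58, -0.65 and 0.26. The median of all genes lay between 0.13 and 0.25 in the 4 pairs. Diet cannot be told apart from depth and from the share of mitochondrial UMIs, whose median in a library was 2.42% and 0.983% in CD and 0.10% and 0.127% in LPD.

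Of the other glutamine, glutamate and ammonia genes, 41 of 64 were at levels that allow a ratio. In CD, 6 were at least 2-fold higher in the library labelled oncogene and 0 lower, beside 2.17% and 1.89% of all genes, and the 6 were the urea cycle genes Cps1, Ass1 and Asl with Got1, Slc7a2 and Prodh2. In LPD, 0 were higher and 7 lower, beside 1.49% and 0.98% of all genes: Tat, Slc38a4, Car3, Otc, Asl, Amdhd1 and Hal. These names were taken because their number is small. The list medians were 0.25 and -0.31. By diet, 11 were higher and 1 lower in LPD control over CD control (6.94% and 3.96% of all genes), and 4 and 10 in LPD oncogene over CD oncogene (8.35% and 4.06%). The counts were 5 and 6 in LPD oncogene over CD control (7.11% and 3.81%) and 6 and 2 in LPD control over CD oncogene (7.88% and 3.92%).

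Of the 85 transgene-positive hepatocytes of the library labelled CD control, 73 (85.9%) were pericentral, 56 of them in bin 10 and 17 in bin 9. The score's pericentral markers include Wnt targets such as Axin2 and Lgr5. Per the study, oncogene-expressing hepatocytes lay mostly in the periportal and midzonal areas but had gene expression like pericentral ones. In positive nuclei a high score from position and one from the transgene cannot be told apart, also within bins. Over all pericentral nuclei the positive ones were at 2075 CPM of Glul against 1407 in the 1516 negative ones, a log2 ratio of 0.56 (counting interval 0.48 to 0.64), but the 2 sets were not matched for score. Within bin 10, Glul was at 2196 CPM in the 56 positive and 2137 CPM in the 738 negative nuclei, a log2 ratio of 0.04 (-0.04 to 0.12). Slc1a2 was at 2732 and 2701 CPM there and Oat at 413 and 424 CPM. No difference of any of the 6 members was detectable in bin 10, since each interval held 0. The 85 positive nuclei held 94 transgene UMIs between them, so a nucleus counted as negative may carry an undetected transgene. The comparison cannot tell such nuclei from transgene-free ones.

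In the less pericentral bins the positive nuclei stood apart. In bin 9 the 17 positive nuclei were at 1578 CPM of Glul against 468 in the 778 negative ones, a log2 ratio of 1.75 (1.55 to 1.95), and Slc1a2 was at 2040 against 599 CPM. In bins 7 and 8 the 8 positive nuclei held 56 Glul UMIs, or 1022 CPM, against 105 CPM in the 1581 negative ones, a log2 ratio of 3.28 (2.86 to 3.67). Slc1a2 was at 1295 against 117 CPM and Oat at 274 against 40.9 CPM. Gls2 and Slc38a3 had intervals that held 0 in both places. Median depth was 6670 UMIs in positive and 4092 in negative nuclei of bin 9, and 4022 and 4566 in bins 7 and 8, and its part in the ratios was not tested. The nuclei come from 1 library and are not replicates. Over the whole hepatocyte class there, not matched for score, 1.97% of 6599 genes were at least 2-fold higher and 2.15% lower in positive nuclei. In that comparison, Glul, Slc1a2, Oat and Rhbg were on the higher side at log2 2.57, 2.59, 2.31 and 2.25, and Gls2 on the lower side at -3.23.

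Outside hepatocytes the members were read against free RNA, since droplets also take up RNA from broken cells. The 2083, 2520, 1803 and 2873 non-parenchymal nuclei (in library order) were 9 classes named by marker genes, with medians of 1225, 1213, 836 and 877 UMIs. Hepatocyte transcripts were found in them at high levels: the median of Alb, Apob, Apoa1, Ttr and Serpina1c was 93.6%, 96.3%, 74.3% and 56.9% of their own level in hepatocytes. These genes are a part of the 8 hepatocyte markers used to name clusters. With the libraries together, the median CPM of all 8 was from 0.4185 (Kupffer) to 0.731 (cholangiocyte) of that in hepatocyte clusters. That is another measure and is not the reference used below. Glul was at 38.7%, 43.4%, 74.3% and 65.1% of its hepatocyte level, Slc1a2 at 30.9%, 29.8%, 38.3% and 19.0%, and Gls2 at 45.2%, 46.0%, 31.1% and 23.6%. Slc38a3 lay between 24.4% and 42.8%. Over all non-parenchymal nuclei, Glul was under the markers' median in the CD libraries and equal to it in LPD control to the digits given. In LPD oncogene Glul was above it, at 65.1% against 56.9%. Slc1a2, Gls2 and Slc38a3 were under that median in each library, so for these genes no level above this reference was seen. A level under it does not show that a gene was absent, since each member's own free RNA was not measured. By class, set against the markers' median in the same class, Gls2 reached it in cholangiocytes of CD control (113% on 46 UMIs, 82.8% to 151%), and Slc1a2 was above it in 3 classes of the LPD libraries, each with an interval that held the median. Over all non-parenchymal nuclei, Oat was at 42.0, 30.4, 13.4 and 16.6 CPM in library order, on 153, 130, 26 and 50 UMIs. Its hepatocyte levels were 83.1, 35.6, 12.8 and 20.5 CPM. As a share of these, Oat was under the markers' median in the CD libraries and above it in the LPD libraries. In LPD control it reached 105% of its hepatocyte level (67.1% to 157%, which held the median). Rhbg had between 0 and 11 UMIs.

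The share of Glul among the summed Glul and Slc1a2 UMIs differed between classes, most widely in the LPD libraries. It was 51.8% in hepatocytes of LPD control (50.5% to 53.1%) and 88.2% in its sinusoidal endothelial nuclei (79.8% to 93.9%, 82 of 93 UMIs), while its stellate nuclei had 56.1% (46.9% to 65.0%). In LPD oncogene it was 42.1% in hepatocytes, 81.5% in sinusoidal endothelial nuclei (74.9% to 87.0%), 81.4% in Kupffer nuclei (74.1% to 87.4%), 90.3% in stellate nuclei (74.2% to 98.0%) and 43.3% in T or NK nuclei (33.6% to 53.3%). In CD control the sinusoidal endothelial share was 56.9% (48.0% to 65.6%) against 44.7% in hepatocytes, and in CD oncogene it was 36.0% (22.9% to 50.8%) against 23.5%. Glul itself was at 103, 30.9, 188 and 180 CPM in sinusoidal endothelial nuclei and at 126, 76.2, 94.7 and 147 CPM in Kupffer nuclei, the resident macrophages of the liver. In hepatocytes it was at 361, 71.1, 145 and 217 CPM, so the sinusoidal level of LPD control was above the hepatocyte one. RNA from barcodes without nuclei was not analysed here, and the part of free RNA in these Glul levels was not tested.

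**Figure D5:**
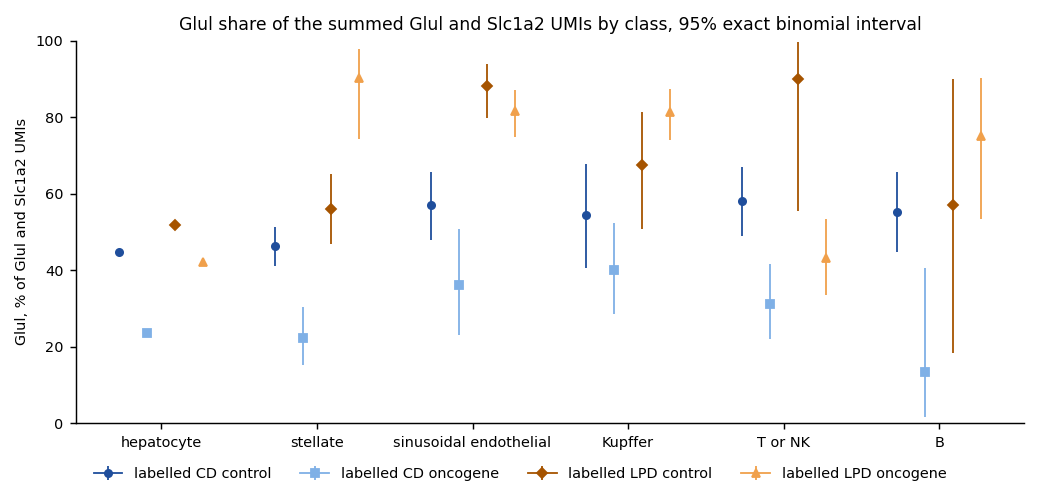
Glul UMIs as a percent of the summed Glul and Slc1a2 UMIs in hepatocytes and 5 other classes, by library, with 95% exact binomial intervals. The sinusoidal endothelial nuclei of the LPD libraries, at 88.2% and 81.5%, lie above hepatocytes of the same libraries, at 51.8% and 42.1%. The T or NK nuclei lie at 58.2%, 31.2%, 90.0% and 43.3% in library order. The 90.0% of LPD control rests on 9 of 10 UMIs (55.5% to 99.7%).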

How the data were processed

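Nuclei from frozen mouse liver were profiled with 10x Chromium 3′ chemistry. The authors made the deposited files with Cell Ranger 9.0.1 on mm10 with human c-MET and CTNNB1 added, as unnormalized counts of UMIs per gene and barcode. Per the study, nuclei with 200 to 7000 genes and at most 21% mitochondrial UMIs were kept. The same filter was applied here, with 5000 variable genes, 23 components, correction for library and Louvain clustering at resolution 0.4 (k = 20), and the members, the pathway list and the transgenes were left out of the clustering. Of 18 clusters, 3 that joined hepatocyte and other markers at high depth were set aside as doublets (1251 nuclei), with 220 proliferating nuclei. No doublet caller was run. Of the 5 hepatocyte clusters, 1 was led by Saa1 and Saa2 and 1 by globin genes. Cluster naming thresholds were set with the counts known.

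The deposited counts were summed per library and zone and tested with edgeR 4.0.16 (R 4.3.3), with DESeq2 1.42.0 as an alternative. The zone test was tried on simulated data. Between libraries, with 1 per group, CPM ratios carry 95% counting intervals (Poisson, exact binomial or conditional) and no p-value; UMI intervals cover counting error only. Genes for ratios had at least 20 CPM in 1 library and 50 UMIs, with a pseudocount of 5 CPM. Odds ratios have Wald intervals and those within bins Mantel-Haenszel ones. Members, gene lists and tests were chosen with earlier results of these data known. Named genes are the 6 members, up to 5 list genes with the largest and 5 with the smallest log2 difference among those called by zone, and the 5 genes nearest to each member over 40 sums of 10 score bins and 4 libraries, of which 1 is not reported here. Promoters and gene positions come from RefSeq and GENCODE on GRCm38.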

Additional observations from a re-analysis of the deposited data

Results flagged for a closer look

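For 4 members the ratio of the library labelled oncogene to the library labelled control had opposite signs in CD and LPD, with both counting intervals clear of 0. In hepatocyte nuclei the log2 ratios were -2.35 in CD and 0.58 in LPD for Glul, -0.95 and 1.14 for Slc1a2, -1.22 and 0.68 for Oat, and 0.48 and -1.67 for Gls2. With 1 library per group, the difference between diets was not tested. In the CD pair the transgene UMIs lie in the library labelled control. As labelled, Rhbg (-2.26 and -1.20) and Slc38a3 (-0.07 and -0.84) had the same sign in both diets. Taken instead as the library with transgene UMIs over the library without them, each CD ratio changes sign. The 4 members then have the same sign in both diets, and Rhbg and Slc38a3 have opposite ones. The opposite signs thus hold for the labels only, and which naming is right was not tested.

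In the zone contrast, the library labelled CD control lay far from the other 3 in Oat: the gap to the nearest library was 0.928 of the range, over the 95% critical value of Dixon's test for 4 values. Its pericentral over periportal log2 ratio was 5.18, against 3.42 to 3.55. Chance flags about 1 in 20 such groups, and 6 members were looked at.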

How the results depend on the processing

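Not every member had an adjusted p under every alternative that was run. Where it was given, the zone differences of the 6 members kept their direction, and all but 1 kept their side of the threshold. The alternatives were DESeq2, no filter on low counts, no library term, outer bins, 1 pair of cuts, a thinned score, a score without Wnt targets, stricter nuclei, no deepest nuclei, clusters without library correction, and no globin-led cluster (chosen after seeing the data). The exception was Slc38a3 with no library term (log2 -0.54, adjusted p 0.58). That fit called 112 genes higher and 75 lower, and 1 and 2 of the other glutamine and ammonia genes. Leaving out 1 library gave 4.46 to 5.15 for Glul, 6.01 to 6.42 for Slc1a2, 3.42 to 4.43 for Oat, 2.87 to 3.74 for Rhbg, -3.72 to -3.09 for Gls2 and -0.57 to -0.48 for Slc38a3, with 296 to 392 genes called higher and 346 to 413 lower. The library term of the main fit paired the 2 zones of each library. Libraries could not be paired with one another, because the labels carry no replicate numbers.

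Glul's log2 ratios between libraries moved past their counting intervals but kept their signs. CD oncogene over CD control became -2.21 with TMM factors, -2.70 with stricter nuclei and -2.18 without the deepest nuclei. LPD oncogene over LPD control became 0.49 as the mean of nuclei. LPD control over CD control became -1.43 with TMM, -1.03 as the mean of nuclei, -1.95 with stricter nuclei, -1.12 without the deepest and -1.40 without the globin-led cluster, and LPD oncogene over CD oncogene became 1.34 with TMM, 1.77 as the mean of nuclei and 1.34 with stricter nuclei. Of the ratios of all members, 1 changed sign: Slc38a3 in CD became 0.072 with TMM. The odds ratios of Glul with Slc1a2, in library order, became 10.9, 8.62, 17.0 and 12.1 with no thinning and 7.94, 9.16, 15.5 and 9.19 within bins, and 17.3 in CD control at 500 UMIs. Odds ratios turned to the other side of 1 within bins for Gls2 (1.20 in CD control, 1.05 in LPD oncogene) and Slc38a3 (1.12 in CD control, and 1.01 in LPD oncogene, where the main interval held 1) and, likewise, Rhbg (0.890 in LPD control). Transgene-positive over negative nuclei gave 0.56 for Glul in pericentral nuclei alone and 2.86 with at least 2 transgene UMIs. Chosen after seeing the data, bin 10 alone gave 0.039 for Glul, -0.039 for Oat and 0.081 for Slc38a3, and bins 7 and 8 gave 3.28 for Glul, 0.72 for Gls2 and 0.20 for Slc38a3.

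Limits are the single library per group, the depth that splits by diet, the CD labels and the sparse counts of Rhbg.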

Other observations

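The cluster led by globin genes, between 140 and 242 nuclei per library, was counted as hepatocyte because 7 of 8 hepatocyte markers were raised, although its 4 leading genes are those of red blood cells. It held Glul at 542, 151, 796 and 887 CPM and Slc1a2 at 213, 60.7, 176 and 170 CPM in library order. Oat was at 258, 253, 134 and 128 CPM there, and both Glul and Oat were above their level over all hepatocyte nuclei in each library. Leaving the cluster out kept the sign of each member's ratio between libraries and each zone call. These nuclei were shallow, with medians between 668 and 1739 UMIs.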
